A study of Mus musculus with 10 samples.

Results

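The platelet-derived growth factor (PDGF) receptors and ligands are 6 genes: the receptors Pdgfra (alpha) and Pdgfrb (beta) and the ligand chains Pdgfa, Pdgfb, Pdgfc and Pdgfd. They were taken as every probe annotated with one of these symbols, which gave 7 probes, a single probe for each gene except Pdgfb with 2, out of 16593 genes that had a probe. Of the 6, 4 were detected on at least 2 of the 10 arrays (detection p below 0.01, from the negative control beads) and so were among the 9778 genes tested, while Pdgfb and Pdgfd were not. RNA of C57BL/6 mouse cells was measured on Illumina bead arrays, 2 for each of 5 groups. The groups were induced oligodendrocyte progenitor cells derived from pericytes, sampled after 5, 15 and 25 passages (iOPC p5, p15 and p25), primary cells titled oligodendrocyte progenitors (OPC), and pericytes (PC), the mural cells of small vessels from which the induced cells were made. The labels call the OPC sample a progenitor in its title and an oligodendrocyte in its cell type, do not give in the fields used here how the cells were induced, and do not say whether the arrays of a group came from separate cultures, so the p-values below measure the spread between these arrays and no more. The comparisons set the induced cells against the pericytes they came from, against primary OPC, and against one another over passages.

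PDGF chains form dimers that bring receptor chains together and switch on their tyrosine kinase. The alpha receptor binds A, B and C chains and the beta receptor binds B and D chains. In the central nervous system Pdgfra marks OPC, whose division and survival depend on the A chain, while Pdgfrb marks pericytes, which are drawn to vessels by B chain from the endothelium.

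Each measurement exists in a table of non-normalized signals with detection p-values (the signal table, normalized here on the log2 scale) and in a table of the authors' normalized log2 values (the value table), and the columns under one heading did not match between them, except PC. Over 9403 probes detected on every array, columns of the same heading correlated across probes at a mean r of 0.961 for PC, but at 0.862 for iOPC p5, 0.837 for p15, 0.849 for p25 and 0.832 for OPC. The signal columns headed iOPC p15 matched the value columns headed OPC at 0.964. No column was moved, and each member's comparison is given from both tables under its own headings. The mean signal of an array lay between 268 and 388, lowest on both iOPC p25 arrays (299 and 268). Of 8 OPC markers with a probe, the signal arrays detected 5 on both iOPC p5 arrays, 8 on both p15 arrays, 7 on both p25 arrays, 6 and 5 on the OPC arrays, and 1 (Cspg4, which pericytes share) on the PC arrays. On the arrays headed OPC, Nkx2-2 and Neu4 were not detected and Olig2 was detected on 1 of 2, while fibroblast markers were detected to 8 and 7 of 8. Fibroblast markers were also detected to 6 and 6 at p5, 2 and 2 at p15, 6 and 6 at p25, and 7 and 7 on the PC arrays. The PC arrays detected 9 of 14 pericyte markers, but not the defining genes Rgs5, Abcc9, Kcnj8, Des and Higd1b. Over all groups in the order given, detected pericyte markers numbered 6 and 7, 5 and 5, 6 and 5, 9 and 7, and 9 and 9 of 14, and astrocyte markers 4 and 4, 6 and 6, 5 and 6, 5 and 5, and 3 and 2 of 7. Of 8 endothelial markers, 1 was detected on each iOPC and OPC array and 3 and 2 on the PC arrays, and microglia markers were detected on 0 arrays (0 of 8). In mixed cultures fewer cells of a type and less RNA per cell cannot be told apart.

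The alpha receptor Pdgfra (probe ILMN_1235932) was detected on all 10 arrays and stood above pericytes in all comparisons but one. Its RefSeq promoter window, 250 bases before to 50 after the annotated start (GRCm38.p6, chr5:75152001-75152300, plus strand), is shown because, of the 2 members detected on every array, this gene changed more.
Pdgfra promoter: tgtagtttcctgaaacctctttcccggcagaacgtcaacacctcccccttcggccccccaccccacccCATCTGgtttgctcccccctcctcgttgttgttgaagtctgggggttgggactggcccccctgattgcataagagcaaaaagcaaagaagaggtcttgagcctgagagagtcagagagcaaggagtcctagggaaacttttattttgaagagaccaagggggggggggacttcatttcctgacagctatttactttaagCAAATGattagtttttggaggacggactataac
Capitals mark the matches of a search on both strands for the TATA box (TATAAA), the GC box (GGGCGG), the CCAAT box (CCAAT), the E-box (CANNTG), the element of basic helix-loop-helix factors, and the Sox-type core ACAAAG. This window held 2 E-box matches and none of the other motifs. An E-box stands in 72.3% of the 32851 windows of that length, a CCAAT box in 37.4%, a GC box in 35.7%, a Sox-type core in 18.7% and a TATA box in 13.6%. Its GC content was 51.0%, against a median of 52.7% for all windows. Such matches describe letters and not binding.

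The Pdgfra signals were 2969.9 and 2923 on the iOPC p5 arrays, 7821 and 7432 on p15, 474 and 383 on p25, 2475 and 2952 on the OPC arrays, and 805 and 708 on the PC arrays. The p15 arrays were the highest and the p25 arrays the lowest, and no p5, p15, p25 or OPC array overlapped the PC range. After normalization the change against PC was 2.24 ± 0.08 (log2, SE, 2 arrays each side, 4.72-fold, adjusted p = 2.74e-09) at p5, 3.49 ± 0.08 (11.2-fold, adjusted p = 5.70e-11) at p15, and a fall of -0.46 ± 0.08 (1.37-fold lower, adjusted p = 0.00047) at p25. OPC stood 2.05 ± 0.08 above PC (4.13-fold, adjusted p = 5.74e-09). The order in the signal table was thus p15, then p5 and OPC, then PC, then p25, and the neighbours p5 and OPC did not pass a test of their difference (0.19 ± 0.08, adjusted p = 0.0866).

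The deposited log2 values gave another order. Pdgfra stood at 11.96 and 11.41 at iOPC p5, 11.33 and 11.45 at p15, 11.73 and 11.23 at p25, 12.95 and 13.07 in OPC, and 9.49 and 9.54 in PC. Both OPC columns were highest, both PC columns lowest, and the columns of the 3 passages overlapped one another. Against PC the rises were 2.17 ± 0.23 at p5 (adjusted p = 0.00015), 1.87 ± 0.23 at p15 (adjusted p = 0.000327), 1.97 ± 0.23 at p25 (adjusted p = 0.000245) and 3.49 ± 0.23 in OPC (adjusted p = 7.54e-06). So at p5 the tables differ little, at p15 and in OPC the size of the rise is exchanged (3.49 and 2.05 in signals, 1.87 and 3.49 in values), and at p25 the sign turns.

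**Figure D1:**
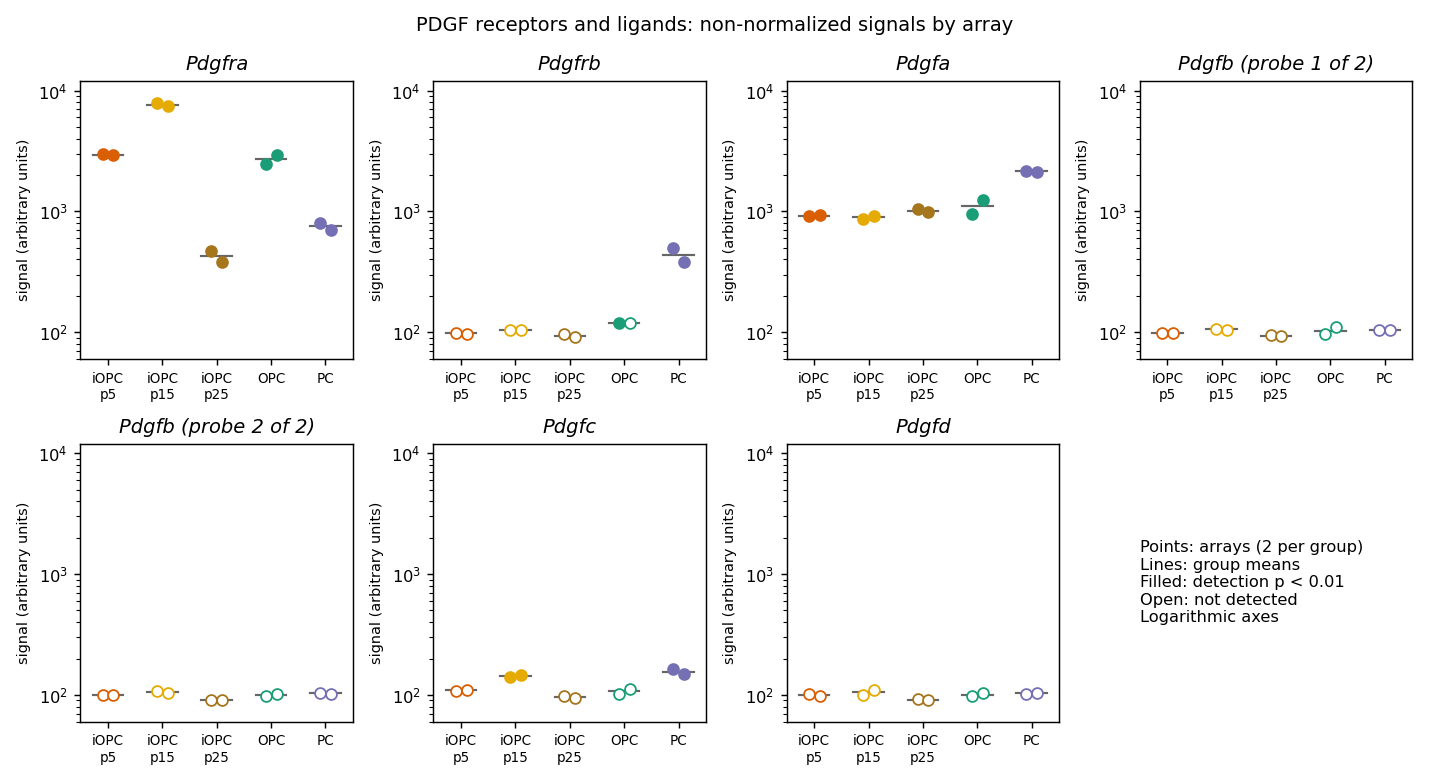
Non-normalized signals (arbitrary units, logarithmic axes) of the 7 probes on each array. Points are arrays, filled where the detection p was below 0.01 and open elsewhere, lines are means of the 2 arrays of a group, and Pdgfra runs between 383 and 7821 while both Pdgfb probes and Pdgfd are open in every group.

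The beta receptor Pdgfrb (probe ILMN_2903972) showed the opposite side: it was highest in pericytes in both tables, and in the signal table it was detected there and on no iOPC array. Its signals were 99.0 and 97.6 on the iOPC p5 arrays, 103 and 103 on p15, 95.9 and 91.7 on p25, 119.5 and 118 on the OPC arrays, and 495 and 382 on the PC arrays. It was detected on both PC arrays and on OPC replicate 1 (detection p-value 0.00125), but not on OPC replicate 2 (detection p-value 0.0113) or on any iOPC array. The probe thus passed the detection filter only through the PC arrays, where it was highest. A probe kept this way tends to be lower elsewhere, so the adjusted p-values of its fall are no independent support. Because the iOPC arrays give only a bound, the fall is stated as at least 11.8-fold lower at p5 (adjusted p = 6.83e-10), at least 12.1-fold lower at p15 (adjusted p = 3.90e-10) and at least 10.97-fold lower at p25 (adjusted p = 6.51e-10) than in PC. These bounds compare the PC mean with, on each iOPC array, the lowest level of a detected probe or the probe's own level, whichever was higher. Here and wherever a bound is given below, the adjusted p-value is that of the fitted change, and the bound itself was not tested. OPC lay 3.38 ± 0.12 log2 units below PC (adjusted p = 3.61e-09). The size of the Pdgfrb fall depended on the background correction. With none, the changes were -2.10, -2.08 and -2.04 at p5, p15 and p25 and -1.84 in OPC, against fitted changes of -4.18, -4.15, -4.06 and -3.38, and with an offset of 50 they were -2.81, -2.80, -2.77 and -2.48.

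The Pdgfrb log2 values were 1.87 and 1.66 at iOPC p5, 2.43 and 1.89 at p15, 1.54 and 2.40 at p25, 2.83 and 1.34 in OPC, and 8.69 and 8.31 in PC. The PC columns stood far apart from all others, which lay below the median of a column (3.29), where no detection call exists. Relative to PC the changes were -6.73 ± 0.49 at p5 (adjusted p = 1.91e-05), -6.34 ± 0.49 at p15 (adjusted p = 2.50e-05), -6.52 ± 0.49 at p25 (adjusted p = 2.12e-05) and -6.41 ± 0.49 in OPC (adjusted p = 1.64e-05). The OPC columns of Pdgfrb differed from each other, and the change against PC was -7.16 without OPC replicate 1 and -5.67 without OPC replicate 2. The order of levels was PC above all other groups in either table. Below it, the iOPC passages were lower than OPC in fitted signals. The log2 changes were -0.80 at p5 (adjusted p = 0.000726), -0.77 at p15 (adjusted p = 0.000292) and -0.68 at p25 (adjusted p = 0.000975). Without background correction they were -0.26, -0.25 and -0.20. No bound is given, since OPC replicate 2 did not detect the probe either and both sides lay near background. The p25 call ended with median scaling (adjusted p = 0.121), and no passage passed against OPC in the values (adjusted p between 0.619 and 0.915).

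Compared receptor against receptor, the change of Pdgfra lay above that of Pdgfrb on every iOPC and OPC array in both tables. At p25 in signals Pdgfra itself was below PC (-0.40 and -0.52), so the difference there rests on the lower Pdgfrb alone. Since levels of different probes are not comparable, each receptor was first set to its own PC mean, and the difference is the change of Pdgfra minus the change of Pdgfrb on the same array. In the signal table it was 6.42 and 6.41 log2 units at iOPC p5, 7.70 and 7.58 at p15, 3.64 and 3.57 at p25, 5.23 and 5.62 in OPC, and -0.11 and 0.11 in PC. Because no iOPC array detected Pdgfrb, these sizes rest on a probe at background. Pdgfrb also passed the detection filter only through PC, so a shift away from PC was favoured in advance. With Pdgfrb held at its bound on the arrays that did not detect it, a choice made after seeing the data, the background-corrected differences were 5.83 and 5.77 at p5, 7.13 and 7.04 at p15, 3.05 and 2.95 at p25, and 5.23 and 5.59 in OPC. OPC replicate 1 detected Pdgfrb, so its 5.23 is the fitted value. The other differences are minima under that correction only. Without background correction the differences were smaller, at 4.21 and 4.19 at p5, 5.46 and 5.35 at p15, 1.68 and 1.60 at p25, 3.67 and 3.83 in OPC, and -0.09 and 0.09 in PC. The iOPC and OPC arrays stayed above both PC arrays under either choice. The value table gave 9.07 and 8.74 at p5, 7.88 and 8.54 at p15, 9.17 and 7.82 at p25, 9.11 and 10.71 in OPC, and -0.22 and 0.22 in PC, with passages that overlapped. An exact permutation test of the F statistic over all 945 ways to form 5 pairs of arrays gave p = 0.00106 in signals, which is the smallest it can give (also with the bound and without background correction), and p = 0.0328 in values (n = 2 arrays a group). This test asks whether arrays of the same group lie closer together than other pairings over all 5 groups. It does not test which group is shifted or in which direction. Without both arrays headed iOPC p15 the exact permutation p in values was 0.0667, and without both headed OPC it was 0.0857. Between any 2 groups of 2 arrays an exact two-sided test cannot go below 0.333, so pairs of groups were not tested on this difference.

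**Figure D2:**
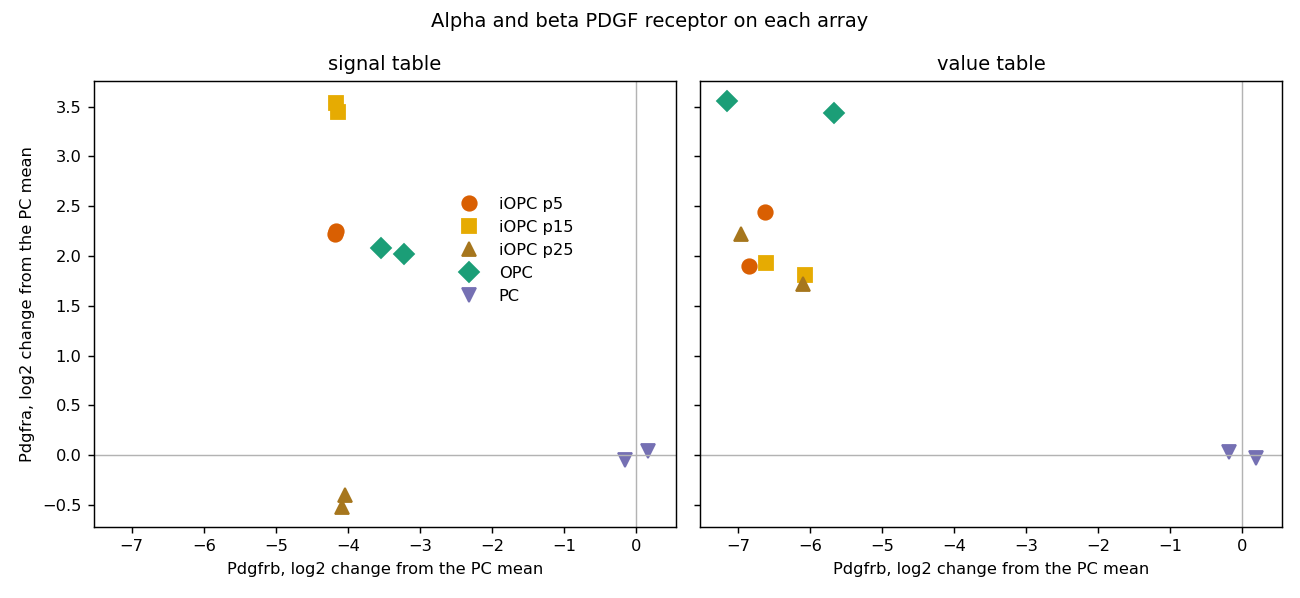
Change of Pdgfra (vertical axis, log2) against change of Pdgfrb (horizontal axis, log2) from the PC mean on each array, in the signal table (left) and the value table (right). All iOPC and OPC arrays lie left of PC. The iOPC p25 arrays lie below 0 on the vertical axis in the signal table (-0.40 and -0.52) and above it in the value table (2.22 and 1.72).

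Among the ligands, Pdgfa (probe ILMN_2424721), the A chain that binds the alpha receptor alone, was detected on all 10 arrays and was lower than in pericytes in every iOPC passage and in OPC. The promoter window of the more upstream of its 2 RefSeq starts (GRCm38.p6, chr5:138994895-138995194, minus strand) is shown as that of the one ligand detected throughout, and is far richer in G and C (73.3%) than that of its receptor.
Pdgfa promoter: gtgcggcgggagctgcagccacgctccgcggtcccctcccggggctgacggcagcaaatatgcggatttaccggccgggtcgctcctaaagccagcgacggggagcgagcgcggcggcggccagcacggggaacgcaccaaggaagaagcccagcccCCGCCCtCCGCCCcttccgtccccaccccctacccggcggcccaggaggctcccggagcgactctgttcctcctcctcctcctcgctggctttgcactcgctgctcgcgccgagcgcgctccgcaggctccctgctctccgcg
Capitals mark 2 GC box matches, the only motifs of the search found in it. Pdgfa signals were 924 and 926 on the iOPC p5 arrays, 868 and 913 on p15, 1040.3 and 993 on p25, 957 and 1241 on the OPC arrays, and 2181 and 2123 on the PC arrays. No iOPC or OPC array reached the PC range. The normalized change against PC was -1.08 ± 0.09 at p5 (adjusted p = 3.12e-06), -1.34 ± 0.09 at p15 (adjusted p = 3.60e-07), -0.57 ± 0.09 at p25 (adjusted p = 0.00033) and -0.88 ± 0.09 in OPC (adjusted p = 1.51e-05). Log2 values of Pdgfa were 9.11 and 9.41 at p5, 9.15 and 9.21 at p15, 9.65 and 9.51 at p25, 9.47 and 9.59 in OPC, and 10.74 and 10.86 in PC. Here too the PC columns stood above all others, with changes of -1.54 ± 0.16 at p5 (adjusted p = 0.000119), -1.62 ± 0.16 at p15 (adjusted p = 8.75e-05), -1.22 ± 0.16 at p25 (adjusted p = 0.000407) and -1.27 ± 0.16 in OPC (adjusted p = 0.000253). Pdgfa was thus the ligand whose direction against PC was the same in all comparisons of the 2 tables, and PC was its highest group in both.

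Pdgfc (probe ILMN_2753912), a chain released in latent form and cut before it binds the alpha receptor, was faint. Its signals were 109 and 111 on the iOPC p5 arrays, 142 and 147 on p15, 98.8 and 94.8 on p25, 102 and 112 on the OPC arrays, and 163 and 149 on the PC arrays. It was detected on both p15 and both PC arrays, and on no array of p5, p25 or OPC. Against PC it was at least 2.44-fold lower at p5 (adjusted p = 3.84e-07), at least 2.26-fold lower at p25 (adjusted p = 1.70e-07) and at least 2.47-fold lower in OPC (adjusted p = 2.24e-07), while at p15 the change was -0.52 ± 0.10 (adjusted p = 0.000957). The fitted changes behind the bounds (-1.52 at p5, -1.63 at p25 and -1.63 in OPC) were -0.50, -0.53 and -0.54 without background correction. Deposited values of Pdgfc were 6.45 and 5.77 at p5, 5.29 and 4.52 at p15, 5.44 and 5.37 at p25, 5.02 and 4.91 in OPC, and 5.81 and 5.80 in PC. There the p5 columns lay on both sides of PC (0.31 ± 0.29, adjusted p = 0.405) and p25 did not pass (-0.40 ± 0.29, adjusted p = 0.29). Falls at p15 (-0.90 ± 0.29, adjusted p = 0.0331) and in OPC (-0.84 ± 0.29, adjusted p = 0.0412) passed, but the p15 call ended without p15 replicate 2 (adjusted p = 0.188) and without either array of p25, OPC or PC (0.0509 to 0.112). The OPC call ended without either array of p25, OPC or PC (0.0614 to 0.15).

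Pdgfb (probes ILMN_2618714 and ILMN_2726543), the chain that binds both receptors, and Pdgfd (probe ILMN_2618739), a ligand of the beta receptor, were not detected on any array. The lowest detection p was 0.0789 for Pdgfb, on OPC replicate 2, and 0.115 for Pdgfd, on iOPC p15 replicate 2. Signals ran from 90.1 to 110.2 over both Pdgfb probes and from 90.0 to 109.7 for Pdgfd, and the deposited values from 1.41 to 3.17 and from 1.03 to 2.51, all below the column median. Fitted without the detection filter over 16593 genes, no comparison between groups passed for either gene in signals. In values 1 passed, Pdgfb at p5 over OPC (0.98 ± 0.27, adjusted p = 0.0283), with all 4 columns below the median. No level can be set between groups from these probes, and a low signal does not separate absent RNA from a probe that hybridizes poorly.

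**Figure D3:**
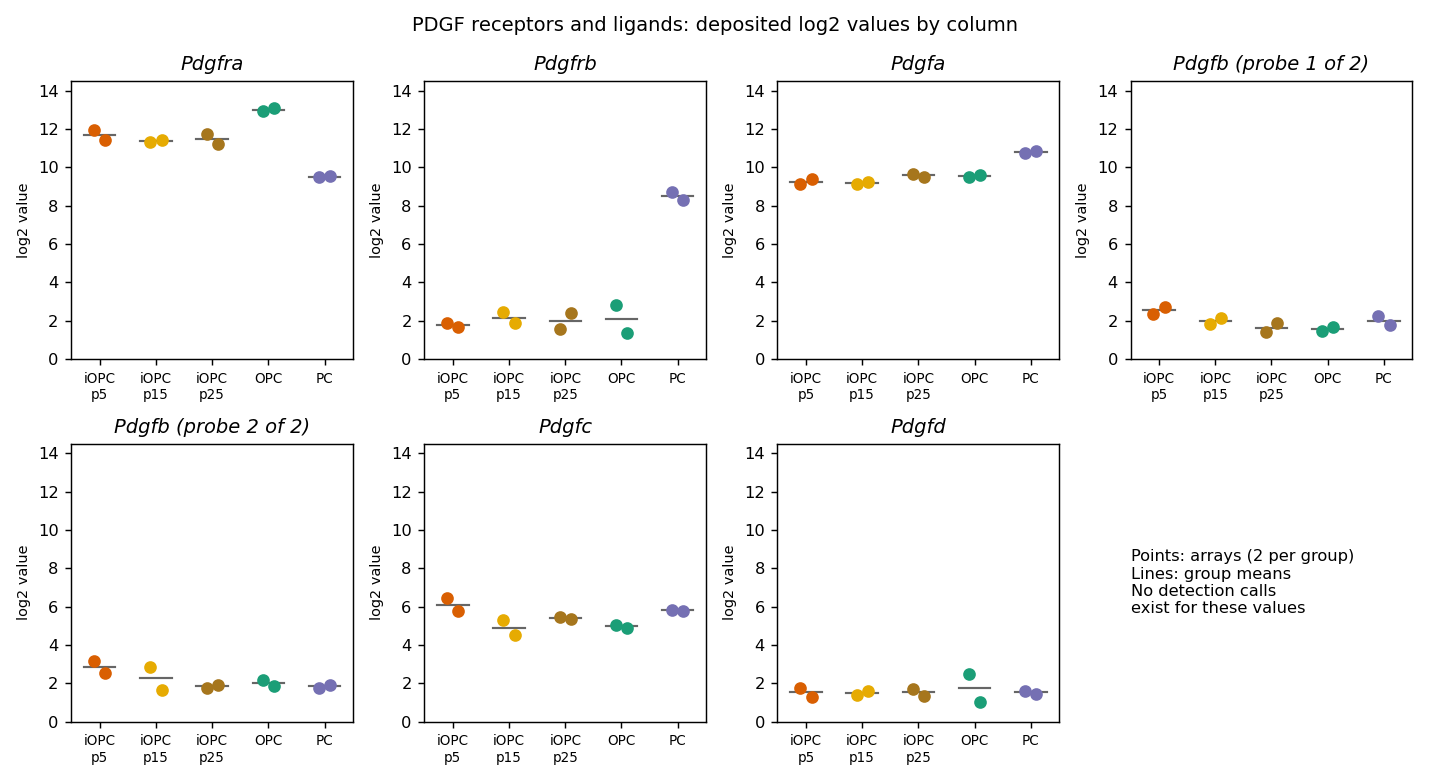
Deposited log2 values of the 7 probes in each column. Points are columns and lines are means of the 2 columns of a group. Pdgfra and Pdgfrb separate PC from the other groups in opposite directions, and the 3 iOPC passages overlap for Pdgfra (11.23 to 11.96).

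Counted over the 4 tested members (adjusted p below 0.05 over all 9778 genes), 4 were called against PC at p5, where 66.4% of all genes were, 4 at p15 (74% of all genes), 4 at p25 (72.4%) and 4 in OPC (67.8%) in the signal table. The value table called 3 at p5 (54.3% of all genes), 4 at p15 (53.6%), 3 at p25 (53.4%) and 4 in OPC (56.4%). For the mean of the 3 passages against PC, 4 were called in signals (76.3% of all genes) and 3 in values (59.7%), Pdgfc being the one that did not pass (-0.33 ± 0.24, adjusted p = 0.269). Most genes were called in these comparisons, so the counts say little about these members, and their directions and sizes carry the description. Pdgfra alone was called higher, in all but the p25 signals, and Pdgfrb had the largest fall of the 4. Pdgfrb was tested only because the PC arrays detected it, so its fall was in part set by the detection filter.

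**Figure D4:**
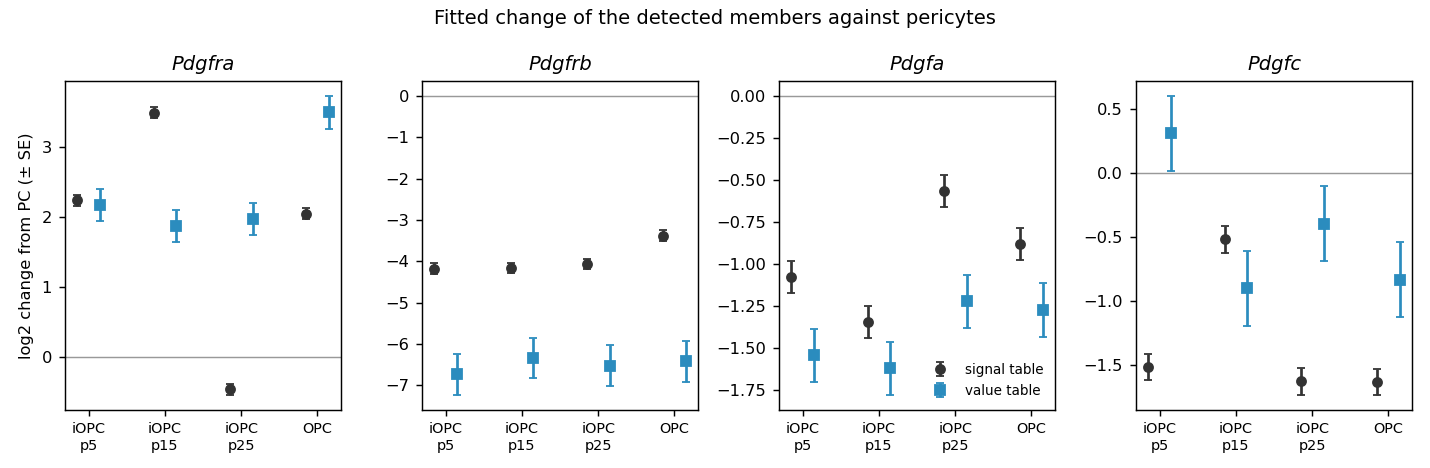
Fitted log2 change against PC of the 4 tested members (points, with SE bars) at each iOPC passage and in OPC, from the signal table (circles) and the value table (squares). The vertical axes differ between panels. Pdgfra at p25 is at -0.46 in signals and at 1.97 in values.

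Set against the columns headed OPC, Pdgfra differed in size and sign between the passages and tables, and at p5 in signals Pdgfrb alone was called. The headings did not match between the tables, and the signal columns headed p15 matched the value columns headed OPC. These comparisons therefore describe columns by heading, and whether the headings name the cells was not tested. Signals placed Pdgfra 1.44 ± 0.08 above OPC at p15 (adjusted p = 7.85e-08) and below it at p25 (-2.50 ± 0.08, adjusted p = 5.43e-09). In the values it was lower than in OPC at each passage, by -1.33 ± 0.23 at p5 (adjusted p = 0.00234), -1.62 ± 0.23 at p15 (adjusted p = 0.000863) and -1.52 ± 0.23 at p25 (adjusted p = 0.00117). Pdgfa was lower than in OPC at p15 (-0.46 ± 0.09, adjusted p = 0.00147) and higher at p25 (0.32 ± 0.09, adjusted p = 0.0167) in signals, and passed at no passage in values (adjusted p between 0.11 and 0.811). The rise at p25 rested on single arrays (adjusted p = 0.116 without p25 replicate 2 and 0.131 without OPC replicate 1), and the non-normalized signals of those 2 groups overlapped. Pdgfc at p15 was above OPC in signals (1.11 ± 0.10, at least 1.72-fold after background correction, adjusted p = 4.39e-06), where no OPC array detected it, and the change was 0.33 without background correction. In values it was above OPC at p5 (1.14 ± 0.29, adjusted p = 0.0137), a call that ended without p5 replicate 1 (adjusted p = 0.0575), OPC replicate 1 (0.0535) or OPC replicate 2 (0.0711). Of the 4 members, 1 was called at p5 (39.8% of all genes), 4 at p15 (67.1%) and 3 at p25 (55.6%) in signals, and 2 at p5 (49.1%), 1 at p15 (48.3%) and 1 at p25 (48.2%) in values.

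Over the passages, taken by headings that did not match between the tables, the tables differ for these genes. In signals Pdgfra was 1.25 ± 0.08 higher at p15 than at p5 (adjusted p = 2.61e-07), lower at p25 than at p15 (-3.95 ± 0.08, 15.4-fold, adjusted p = 3.43e-11) and lower at p25 than at p5 (-2.70 ± 0.08, adjusted p = 2.87e-09). The deposited values of Pdgfra did not pass between any 2 passages (changes of -0.30, 0.10 and -0.20 for p15 minus p5, p25 minus p15 and p25 minus p5, adjusted p between 0.423 and 0.919). Pdgfrb was at background at all passages, and Pdgfa moved by less than 1 log2 unit: -0.26 at p15 over p5 (adjusted p = 0.0327), 0.78 at p25 over p15 (adjusted p = 3.20e-05) and 0.51 at p25 over p5 (adjusted p = 0.00103). The smallest of these ended with median scaling (adjusted p = 0.0726), and without p5 replicate 1 (adjusted p = 0.103), p5 replicate 2 (0.0931) or p15 replicate 1 (0.188). Pdgfc was higher at p15 than at p5 (at least 1.70-fold) and lower at p25 than at p15 (at least 1.58-fold) in background-corrected signals, with changes of 0.29 and -0.32 without that correction. By contrast, in values it was lower at p15 than at p5 (-1.21 ± 0.29, adjusted p = 0.0426). That call ended without p5 replicate 1 (adjusted p = 0.122) and without any other single array but p5 replicate 2 and p15 replicate 1. The F test over passages called 3 members in signals (81.4% of all genes) and 0 in values (8.94%, with Pdgfc at adjusted p = 0.0805 and unadjusted p = 0.0113, the only one of 4 below 0.05 unadjusted). By pair, signals called 3 members between p15 and p5 (62.8% of all genes), 3 between p25 and p15 (71.7%) and 2 between p25 and p5 (55.8%), and values called 1 (10.3%), 0 (0.123%) and 0 (8.91%). Unadjusted, limma gave p below 0.05 for 1 member in each of the pairs with 0 called, Pdgfa at p25 over p15 and Pdgfc at p25 over p5. The background in values moved with single arrays: 1009 genes were called between p15 and p5, but 3004 without p5 replicate 2 and 283 without p15 replicate 1.

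Marker levels moved with Pdgfra in part. The summed normalized signal of the 8 OPC markers was 4995 and 4932 at iOPC p5, 24833 and 24148 at p15, 13790 and 13128 at p25, 3931 and 3687 on the OPC arrays, and 193 and 192 on the PC arrays, where 128 is the sum with every marker at the background offset. At p15 Pdgfra and these markers were both highest, while at p25 the markers stood far above PC and Pdgfra below it. Fibroblast markers summed to 7516 and 7502 at p5, 586 and 614 at p15, 15405 and 13718 at p25, 16815 and 16290.4 in OPC, and 11023 and 9006 in PC, so they were lowest where Pdgfra was highest. Astrocyte markers (7 genes) summed to 2037 and 2150.3 at p5, 6908 and 7141 at p15, 2543 and 2722 at p25, 2399 and 2569 in OPC, and 3780 and 3986 in PC, again highest at p15. Of these 7, 5 were called higher at p15 than in PC, with Slc1a3 the most (6.84), and 1 lower (40.3% of all genes higher, 33.7% lower). The lower gene was Gja1 (-2.03), and Gfap was not detected at p15. S100b rose less at p15 (2.12) than at p5 (5.40) or p25 (6.83). Pericyte markers (14 genes) summed to 3209 and 3317 at p5, 1487 and 1530.3 at p15, 2727 and 2695 at p25, 4630.1 and 4231 in OPC, and 3694 and 3669 in PC, lowest at p15. Gene by gene the picture differed: of 9 tested, 6 were lower and 2 higher in OPC than in PC (all 9778 genes: 3212 lower, 3421 higher). The 2 were Mcam (5.25) and Cspg4 (3.78), which is also an OPC marker. Median log2 changes against PC were -1.74 at p5, -0.98 at p15, -1.89 at p25 and -1.02 in OPC. The deposited values placed the extremes that the sums showed at p15 in the columns headed OPC, where Pdgfra was also highest. There the mean log2 value of the OPC markers was 8.74 and 9.78 at p5, 9.96 and 9.84 at p15, 9.87 and 9.86 at p25, 10.31 and 10.32 in OPC, and 2.49 and 2.23 in PC. That of the fibroblast markers was 5.67 and 5.33, 6.22 and 6.16, 6.60 and 6.69, 3.02 and 3.06, and 8.80 and 8.77 in the same order of groups. Astrocyte markers averaged 7.28 and 7.23 in OPC, between 4.78 and 5.12 in the iOPC columns, and 4.22 and 3.95 in PC, and pericyte markers 4.13 and 4.22 in OPC, between 4.67 and 5.38 in the iOPC columns, and 5.39 and 5.54 in PC. The part of any of these lists in the Pdgfra values was not tested.

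The genes whose pattern was most like that of Pdgfra, by the smaller of the Pearson r over the 10 arrays of each table, were Hectd2, a ubiquitin ligase (0.982), Zfp763, a zinc finger protein (0.957), Ptprd, a receptor tyrosine phosphatase (0.955), Cdc5l, a splicing factor (0.951), and Rev3l, a DNA polymerase subunit (0.948). For Pdgfrb they were Arhgap6 (0.988), Plac9a (0.988), Tnfaip2 (0.988), Batf, a transcription factor (0.987), and Pdk4, a kinase that inhibits pyruvate dehydrogenase (0.986). These points share arrays and groups, and since Pdgfrb was high in PC alone, its correlations rest on PC against the other groups. They are descriptions over 9651 genes and carry no test.

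The molecules that work around the receptors were taken from lists chosen with earlier results of these data known, and are described for the mean of the 3 passages against PC. Fold bounds of these genes hold for background-corrected signals only. Their sizes without that correction are not given, and for Pdgfrb the change without it was smaller. Among adaptors and kinases that receive the receptor signal, 8 of 17 tested genes rose and 5 fell in signals (median log2 change 0.17, against 0.08 over all genes), and 5 rose and 6 fell in values (-0.02, against 0.08). Over all tested genes 42.2% were higher and 34.1% lower in signals, and 33% higher and 26.8% lower in values, and these are the shares against which each list's counts for the mean of the passages stand. Gab1, a docking protein for phosphatase and kinase subunits, rose by 2.88 in signals and 3.03 in values, and Pik3r1, the regulatory subunit of PI3 kinase, by 2.52 and 1.90. Stat3, a transcription factor activated by receptor kinases, rose by 1.60 and 1.11. Shc1, an adaptor that links receptors to Ras, changed by -2.02 and -1.15, a fall in both. Grb10, an adaptor named after its values were seen, rose by 0.98 in signals and by 6.17 in values, and its signal change was 2.73 at p5 but -0.35 at p25.

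Brakes on the pathway, phosphatases and feedback inhibitors, had 1 of 7 tested genes higher and 3 lower in signals (median -0.15) and 3 higher and 1 lower in values (0.37), counts of a few genes beside the shares over all genes given above. Ptpn1, a phosphatase that removes phosphate from receptor kinases, rose by 0.66 and 1.63, while Spred2, an inhibitor of Ras signalling, changed by -0.70 and -2.98, a fall in both. In values 2 brakes fell without p5 replicate 1. In the signal arrays headed p25, 5 of the 7 brakes fell and 1 rose against PC (35.7% of all genes lower, 36.8% higher) with a median of -0.73. The values at p25 had 2 lower and 3 higher (24.3% of all genes lower, 29.1% higher) with a median of 0.28. The MAP kinase phosphatase Dusp6 fell there by 3.06 (adjusted p = 1.58e-10), Spry4, a feedback inhibitor, was at least 3.50-fold lower (adjusted p = 4.79e-08) and Spred2 at least 2.79-fold lower (adjusted p = 7.80e-07), in the arrays where Pdgfra also lay below PC. In values at p25, Spry4 rose by 1.01 (adjusted p = 0.00353), and Dusp6 changed by -0.71 (adjusted p = 0.0428). Dusp6 and Spry4 were named after their values were seen.

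Of 7 tested genes that process or hold PDGF, 1 was higher and 4 lower in signals (median -0.36) and 2 higher and 4 lower in values (-1.02). The signal arrays headed p15 alone had 1 higher and 6 lower (40.3% of all genes higher, 33.7% lower), and with both of them left out the mean of the other passages had 3 higher. Plau, the urokinase that can cut the D chain, was at least 7.64-fold lower and changed by -5.55 in values. It was detected on the PC arrays alone and passed the detection filter through them, so its count as lower carries no weight. Nrp1, a co-receptor of several growth factors, changed by -1.39 and -3.03. The matrix protein Thbs1, which changed by -3.47 in values, was at least 2.53-fold lower at p15 and at least 2.29-fold lower at p25 in signals, where it was not detected, and its change at p5 was 0.02. Pcsk7, a proprotein convertase, rose by 0.49 and 1.12.

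The related receptors and ligands of the same kinase class and of the VEGF family had 0 of 9 tested genes higher and 9 lower in both tables. Their median was -2.18 in signals (-1.97 with the gene below background at its bound) and -4.98 in values. That gene, Il34, was detected on the PC arrays alone and passed the filter through them, so its count as lower carries no weight. At p25 in signals, 8 were lower and 1 higher (35.7% of all genes lower, 36.8% higher). The higher gene was Vegfa (0.50, adjusted p = 0.000462). Flt1, a VEGF receptor, changed by -3.86 and -9.40. Vegfc, a lymphatic growth factor, changed by -2.35 and -3.64, with 1 of 2 arrays detecting it at p25. Its relative Vegfd, which changed by -8.47 in values, was detected in signals at p5 (-4.64) and was at least 30.9-fold lower at p15 and at least 27.98-fold lower at p25. Kitl, the ligand of the receptor Kit, changed by -6.23 in values, and in signals it was detected at p15 (-3.34) and was at least 12.4-fold lower at p5 and at least 11.5-fold lower at p25. For the mean of the passages Pdgfra was thus higher than in PC while all 9 of these genes were lower, a description of lists chosen with results known and not a test.

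Other growth factor receptors known from OPC or astroglia had 4 of 7 tested genes higher and 1 lower in signals (median 0.51, or 0.17 with 3 genes held at the lowest detected level in PC) and 0 higher and 4 lower in values (-0.75). In signals Ntrk3, a neurotrophin receptor, was at least 5.05-fold higher at p5 and at least 10.9-fold higher at p15. At p25 and in PC it was not detected (0.11, adjusted p = 0.406), and it fell in values (-0.98). Ntrk2, its relative for brain-derived neurotrophic factor, was at least 67.55-fold higher at p15 in signals. It was detected on the p15 arrays alone among all 10 and passed the filter through them. Its change in values was 1.11 (adjusted p = 0.079). Egfr changed by -5.97 in values, while in signals it was at least 7.73-fold lower at p5 and at least 7.17-fold lower at p25, where it was not detected, and 1.17 above PC at p15. Fgfr3 was at least 1.73-fold higher at p15 and at least 1.17-fold higher at p25 in signals, and was not detected at p5 or in PC. Its change in values was -0.05 (adjusted p = 0.873). In values these receptors were high in the columns headed OPC, with 5 of 7 higher than in PC and 0 lower (30.6% of all genes higher, 25.8% lower). Without either array headed p15, 1 rather than 0 rose in values.

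**Figure D5:**
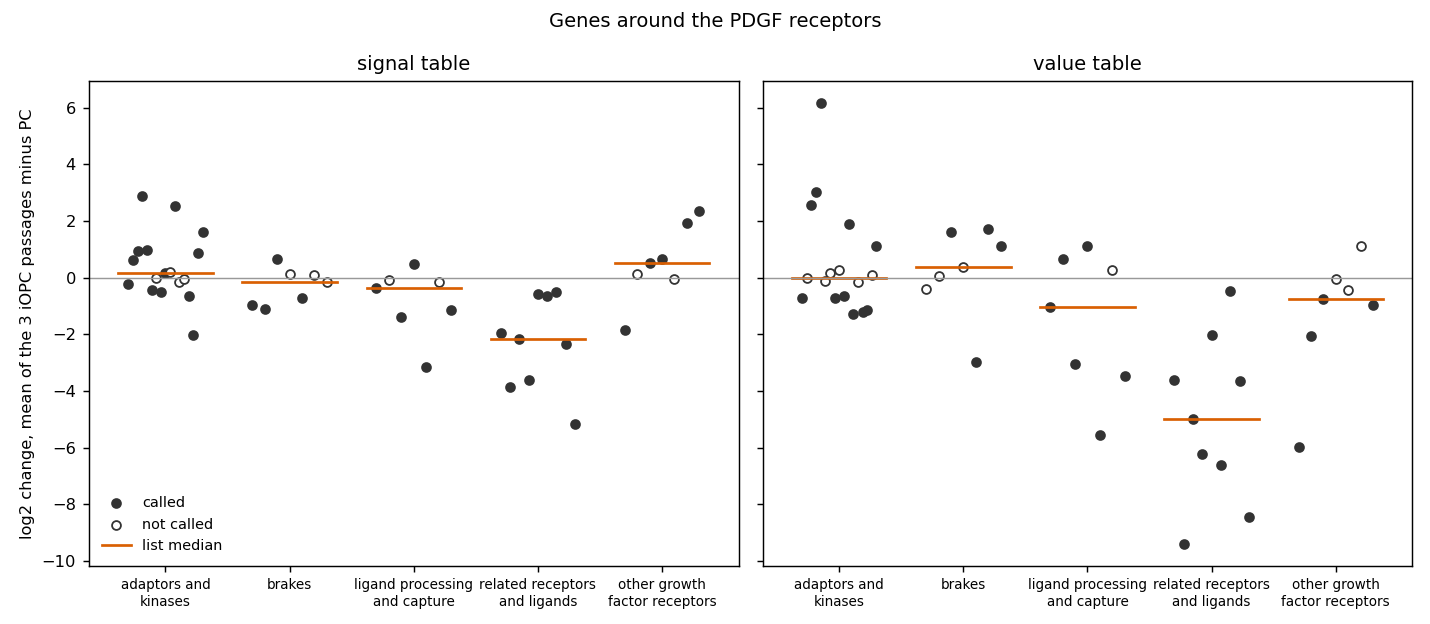
Fitted log2 change of the mean of the 3 iOPC passages against PC for the tested genes of 5 lists around the PDGF receptors, in the signal table (left) and the value table (right). Points are genes, filled where the adjusted p was below 0.05, and lines are list medians. All 9 related receptors and ligands lie below 0 in both tables.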

How the data were processed

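Total RNA was labelled with biotin as cRNA, per the labels' protocols. The tools BeadStudio 3.2, RMA and lumi are listed, without their roles, per the submitters' processing notes. The deposited signal intensity is non-normalized, per the file headers, and each has a deposited detection p-value in steps that imply 798 negative controls. The authors' log2 values have the same quantiles in every column. Background correction behind them and the genome build are not given in the sources used here. Signals were background-corrected, quantile-scaled and log2-transformed with neqc of limma 3.58.1 (R 4.3.3) at an offset of 16. Of 25697 probes, 23978 had 1 gene symbol. Probes with a detection p below 0.01 on at least 2 of 10 arrays were kept, and the brightest stood for its gene (9778 genes). Both tables were fitted with limma (lmFit and eBayes on group means, leaving 5 residual degrees of freedom), adjusted by Benjamini-Hochberg over all genes and called below 0.05, two-sided. The mean of the passages was set against PC and not against OPC. Named genes are all members, up to 4 genes a pathway list with the largest signal change called the same way in both tables (called in signals where fewer than 2 were), and 5 genes most like each receptor. Members and the 11 lists (137 genes) were chosen with earlier results of these data known. The fit was tested on simulated data. Alternatives covered scaling, background, filters, probe rules, variance models, a block and left-out arrays. The number of arrays limits the precision. Promoter windows come from RefSeq (GRCm38.p6) for the 4 members matched, and Python 3.11.15 with matplotlib 3.10.9 drew the figures.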

Additional observations from a re-analysis of the deposited data

Results flagged for a closer look

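In the signal table the effect on Pdgfra against PC differed between passages, taken by headings that did not match those of the value table. Since PC cancels in this difference, the test is the comparison of passages already given above and no further evidence. The change at iOPC p25 was lower than that at p5 by a log2 difference of -2.70 (limma, adjusted p = 2.87e-09) and lower than that at p15 by -3.95 (adjusted p = 3.43e-11), with both p25 arrays below and all p5 and p15 arrays above PC. The same differences in the value table were -0.20 (adjusted p = 0.617) and 0.10 (adjusted p = 0.919).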

How the results depend on the processing

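The calls of Pdgfra and Pdgfrb against PC kept direction and threshold under all alternatives in both tables. Over all 10 pairs of groups, 209 of 212 results of Pdgfra, 209 of Pdgfrb, 205 of Pdgfa and 210 of Pdgfc did so in signals, and in values all 182 of Pdgfra, Pdgfrb and Pdgfa, but 148 of 182 of Pdgfc, whose other 31 lost and 3 gained a call. Many of these alternatives could move only the adjusted p, so the counts overstate how far the changes were tried. A tested member had 1 passing probe, so filters and probe rules kept its change, as did leaving out an array outside the comparison. The exact permutation test of the receptor difference in values gave p = 0.0667 without both iOPC p15 arrays and 0.0857 without both OPC arrays (0.0328 with all), where fewer arrays allow fewer partitions. Median scaling turned Pdgfc at p25 against p5 to 0.30 (-0.11 with quantile scaling, no call). It also ended the Pdgfrb call at p25 against OPC (adjusted p = 0.121) and called Pdgfrb higher at p25 than at p15 (0.70) and p5 (0.58). It called Pdgfc higher at p25 than in OPC (0.42, adjusted p = 0.00498), these probes all near background, and ended the Pdgfa call at p15 against p5 (-0.23, adjusted p = 0.0726), and the cause was not tested. That scaling moved the median of all genes by -0.11 for p15 minus PC, 0.14 for p25 minus OPC, 0.16 for p25 minus p15 and 0.16 for p25 minus p5. Its split of higher and lower genes was 3685 and 2280 for p25 minus OPC (2615 and 2823 with quantile scaling), 4171 and 3165 for p25 minus p15 (3269 and 3742) and 3803 and 2194 for p25 minus p5 (2582 and 2874). Pdgfra at p5 against OPC passed with no background correction (adjusted p = 0.0157), an offset of 50 (0.0377) or a trended robust variance (0.0263). Samples of one replicate number did not deviate together (correlations from -0.05 to 0.13 in signals and from -0.08 to 0.10 in values). With the replicate block, no member's call changed, and Pdgfra at p25 against PC in signals stayed at -0.46 (adjusted p = 0.000674). All-gene counts moved over 1.5 times for passages in values alone: p15 minus p5 ran from 40 (only the groups compared) to 3004 (without p5 replicate 2) around 1009, p25 minus p5 from 32 to 2622 around 871 and p25 minus p15 from 0 to 65 around 12. In the lists, leaving out both p15 arrays gave 3 higher ligand-processing genes in signals (2 without background correction, 1 in the reported fit), and 1 higher growth factor receptor in values (also without either p15 array or with the trended robust variance, 0 in the reported fit). Faint probes (Pdgfrb outside PC, Pdgfc) limit the sizes given.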
